A study of Homo sapiens with 4 samples.

Results

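The genes described here are 10 target genes of YAP and TEAD: CTGF (current symbol CCN2), CYR61 (CCN1), AMOTL2, IGFBP3, MYOF, AXL, F3, CRIM1, FJX1 and GADD45A. They were chosen by symbol from genes known to respond to YAP and TEAD, with earlier results of these data known. All 10 were found among the 14431 genes listed. RNA was sequenced from HGC27, a cell line labelled as human gastric cancer cells. The control group was 2 libraries of wild-type cells, whose library names carry the letters NC. Whether these cells received a control RNA is uncertain. The siAARS1 group was 2 libraries of cells in which AARS1 was knocked down by transfection of a small interfering RNA. Both groups were grown in DMEM that lacked glucose and contained 10% fetal bovine serum, with 25 mM lactate added. The labels give 24 h of lactate, the study's text gives another duration, and the time is therefore uncertain. No library without lactate was analysed here, so the values show AARS1 knockdown under lactate and nothing about lactate itself. The comparison bears on whether transcripts that YAP and TEAD control are lower when AARS1 is depleted.

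YAP and its relative TAZ (gene WWTR1) are coactivators that do not bind DNA themselves. They enter the nucleus, bind TEAD transcription factors and raise transcription of genes with TEAD sites, and the kinases of the Hippo pathway (MST1/2 and LATS1/2) hold them in the cytoplasm by phosphorylation. CTGF and CYR61 are the usual readouts of this activity in epithelial tumours, and AMOTL2, an inhibitor of YAP, is a target that feeds back on it. AARS1 is the cytosolic alanyl-tRNA synthetase, which the study examines as a possible lactyltransferase of YAP and TEAD1.

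The TEAD motif was read in the start windows of the genes, each running from 250 bases before to 50 bases after an annotated transcript start (RefSeq, GRCh38.p14). Of the 10 genes, 7 had a window in the RefSeq promoter table, in 9 windows. CYR61, CRIM1 and GADD45A had no entry. The motif searched was GGAATG on either strand, so CATTCC is a match on the opposite strand. It was present in windows of 3 of the 7 genes, CTGF, AMOTL2 and AXL. By window this was 3 of the 9, against 14.03% of all 35116 windows of the table. The 3 windows with a match are shown with the motif in capitals, beside that of IGFBP3, a gene that was lower in siAARS1 and whose window held no match. Each sequence is printed 5′ to 3′ on the strand of the gene. The windows are chr6:131951323-131951622 (minus strand) for CTGF, chr3:134374398-134374697 (minus strand) for AMOTL2, chr19:41226505-41226804 (plus strand) for AXL and chr7:45921223-45921522 (minus strand) for IGFBP3.
CTGF: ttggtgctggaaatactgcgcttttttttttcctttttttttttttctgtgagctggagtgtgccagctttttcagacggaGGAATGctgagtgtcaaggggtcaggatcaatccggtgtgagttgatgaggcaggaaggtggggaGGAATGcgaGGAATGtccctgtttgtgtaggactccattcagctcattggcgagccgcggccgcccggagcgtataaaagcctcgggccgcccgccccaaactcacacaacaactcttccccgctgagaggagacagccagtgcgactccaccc
AMOTL2: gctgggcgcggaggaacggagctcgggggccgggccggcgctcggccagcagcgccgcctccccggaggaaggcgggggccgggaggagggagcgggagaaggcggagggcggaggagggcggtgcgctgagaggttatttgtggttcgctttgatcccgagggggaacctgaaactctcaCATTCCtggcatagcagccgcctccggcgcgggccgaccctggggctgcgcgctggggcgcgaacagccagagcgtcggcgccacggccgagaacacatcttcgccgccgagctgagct
AXL: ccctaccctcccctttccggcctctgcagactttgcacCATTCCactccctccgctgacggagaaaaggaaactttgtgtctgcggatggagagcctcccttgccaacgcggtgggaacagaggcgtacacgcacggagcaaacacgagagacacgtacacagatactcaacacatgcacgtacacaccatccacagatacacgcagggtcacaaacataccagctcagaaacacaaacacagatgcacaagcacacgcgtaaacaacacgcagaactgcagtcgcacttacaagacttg
IGFBP3: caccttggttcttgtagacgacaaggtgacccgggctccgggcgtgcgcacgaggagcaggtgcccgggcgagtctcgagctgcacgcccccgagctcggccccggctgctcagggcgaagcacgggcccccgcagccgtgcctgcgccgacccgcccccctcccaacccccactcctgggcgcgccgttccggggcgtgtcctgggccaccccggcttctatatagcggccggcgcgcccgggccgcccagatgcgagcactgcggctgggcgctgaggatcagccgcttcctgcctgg

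CTGF held more matches than the other genes. Its window held 3 copies of GGAATG, with first bases at -169, -104 and -95 from the start, all on the strand of the gene. Only 45 of the 35116 windows (0.128%) held 3 or more. AMOTL2 and AXL each had 1 copy on the opposite strand, with first bases at -69 and -212 from the start, and each had another window, at a start farther upstream, without a match. The AP-1 motif TGANTCA, read by the JUN and FOS factors, was present on either strand in the window of F3 only, in 2 copies, and in 7.71% of all windows. The longer motif GGAATGT was present for 2 of the 7 genes, in 2 of their 9 windows, and in 3.46% of all windows. In the 250 bases before the start alone, GGAATG was present for the same 3 genes, in 3 of the 9 windows, and in 11.9% of all windows. These matches describe the reference sequence. Binding of TEAD was not measured in these libraries, and a window without a match says nothing about sites elsewhere.

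Library totals over the listed genes were 30653210 to 33522573 reads, and 1 read equalled 0.0293 to 0.0324 CPM, the deposited unit, which scales reads to the size of their library. Within each group the libraries correlated with r = 0.997 across genes on the log2(CPM + 1) scale, which describes the libraries and is no test. The labels do not state that replicates were separate cultures, so the spread between these libraries may be technical. The p-values by limma rest on that spread, pooled in large part over genes (18.6 prior degrees of freedom). The targeted gene AARS1 (listed as AARS) was at 428 and 417 CPM in the controls and at 292 and 298 CPM with siAARS1, a log2 fold change of -0.52 (SE 0.0357, adjusted p = 2.52e-11 by limma). It therefore stood at 69.7% of control. The change was -0.29 after correction for transcript GC content and length (the GC and length correction). Among markers of epithelial cells, KRT18, KRT19 and EPCAM were not among the genes listed. KRT8, CDH1 and CLDN4 summed to 30.6 to 30.8 CPM in control and 8.002 to 9.36 CPM in siAARS1 libraries, mostly from KRT8. All of them were called lower, KRT8 at -1.93, CDH1 at -0.79 and CLDN4 at -0.62 (38.0% of all genes tested). They were still called lower after the GC and length correction, at -1.70, -0.75 and -0.40 (33.4% of all genes). The fibroblast markers COL1A1, COL1A2, DCN and PDGFRB were all listed and summed to 2702 to 2796 CPM in control and 1881 to 1970 CPM in siAARS1 libraries, mostly from COL1A1. Of these COL1A1 (-0.57), COL1A2 (-1.07) and PDGFRB (-0.95) were called lower, and DCN was called higher (0.11, adjusted p = 0.0155 by limma) but lower after the GC and length correction (-1.29). The mesenchymal state markers VIM, ZEB1 and FN1 (3 of 4, CDH2 not listed) summed to 5150 to 5209 and 4704 to 4814 CPM, sums made almost wholly by VIM. Within them VIM (-0.13) and FN1 (-0.47) were lower and ZEB1 was higher, from 6.16 and 6.84 to 50.0 and 52.3 CPM (log2 change 2.80, adjusted p = 6.48e-18 by limma), and after the GC and length correction ZEB1 was at 1.56 and VIM turned to 0.14. Of the blood markers 1 of 4 was listed, CD68, at 0.486 to 1.10 CPM in all libraries, and of the endothelial markers 0 of 3. Per kilobase of transcript in control libraries, KRT8 ranked at percentile 61.2, COL1A1 at 98.9 and COL1A2 at 79.0 of listed genes with annotated length. The labels call this line a gastric cancer cell, and the part of these marker shifts in the results was not tested.

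Most of the 10 target genes were lower in siAARS1. At a Benjamini-Hochberg adjusted p under 0.05 (limma on log2(CPM + 1), adjusted over the 14199 genes tested), 7 were lower, 1 was higher and 2 were not called. Of all genes tested, 38.0% were called lower and 32.6% higher, so calls in either direction were common in this comparison. The 7 lower genes were CTGF, CYR61, IGFBP3, AMOTL2, GADD45A, AXL and MYOF, the higher gene was FJX1, and CRIM1 and F3 were not called. The siAARS1 libraries lay entirely below both control libraries for those 7 genes (46.6% of all genes) and entirely above for FJX1 (38.5% of all genes). The size of the change separated the genes more than the calls did. CTGF and CYR61 fell by 2-fold or more, against 1.63% of all genes (232 genes) that were called lower and 10.6% called higher by that much. The median log2 fold change of the 10 genes was -0.60, and that of all genes tested was -0.05. Median scaling of the libraries moved the median of all genes to -0.27 and called 57.6% of them lower and 23.3% higher. Under it 9 of the 10 genes were lower and 0 higher, with a median of -0.82, and quantile normalization gave 8 lower and 0 higher (47.7% and 28.1% of all genes), with a median of -0.79 against -0.15 for all genes. In bulk RNA, fewer cells of a kind and less RNA per cell cannot be told apart.

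**Figure D1:**
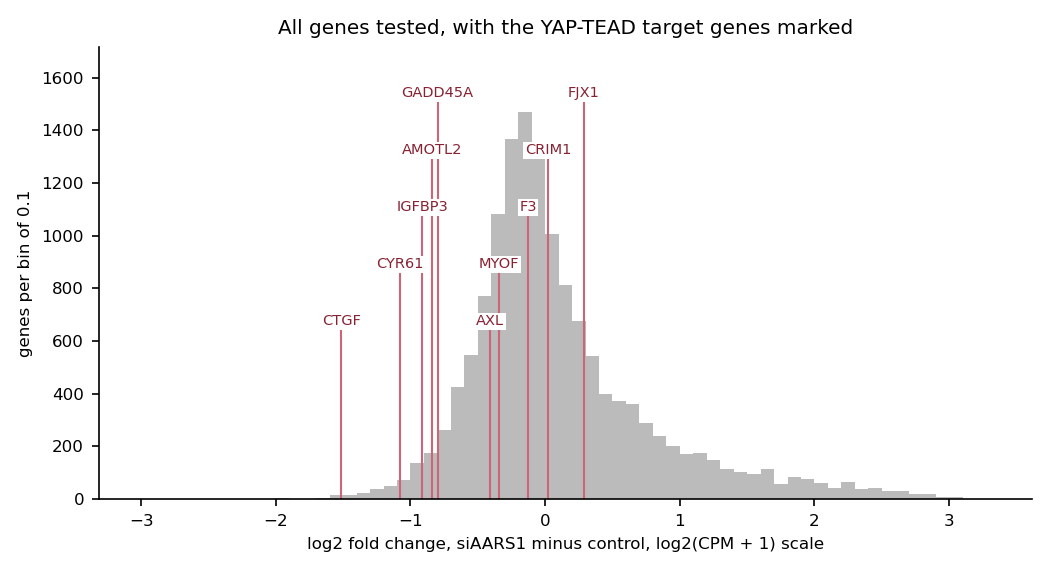
Number of genes per bin of 0.1 in log2 fold change (siAARS1 minus control, log2(CPM + 1) scale) over the 14199 genes tested, with the target genes marked by red lines. CTGF at -1.51 and CYR61 at -1.08 lie in the left tail, and F3, CRIM1, MYOF and AXL lie within the bulk of the genes.

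CTGF and CYR61 encode matricellular proteins of the CCN family, secreted factors that bind integrins and growth factors in the extracellular matrix. CTGF (ENSG00000118523; chr6:131948176-131951373, minus strand, GRCh38) was at 8.39 and 8.64 CPM in the controls and at 2.17 and 2.50 CPM with siAARS1. These values rest on 286, 274, 67 and 83 reads, with a counting error of at most 12.2% in a library. Both siAARS1 libraries were far below both controls, at a mean of 2.33 ± 0.232 (SD, n = 2) against 8.51 ± 0.175 CPM, 3.65-fold lower. The log2 change was -1.51 (95% interval -1.78 to -1.25, SE 0.125, adjusted p = 5.54e-10 by limma). On the reads themselves, without the pseudocount of 1 CPM that compresses changes of low genes, edgeR gave -1.83. CYR61 (ENSG00000142871; chr1:85580761-85583962, plus strand) was at 29.7 and 31.2 CPM in the controls and at 14.8 and 13.1 CPM with siAARS1. The groups did not overlap, and the siAARS1 mean of 13.9 ± 1.21 CPM (SD, n = 2) was 45.7% of the control mean of 30.4 ± 1.04 CPM. This was a log2 change of -1.08 (95% interval -1.24 to -0.91, SE 0.0789, adjusted p = 7.11e-11 by limma). The other listed member of the family, NOV (CCN3), was not called. It was at 16.6 and 17.7 CPM in the controls and at 18.0 and 18.3 CPM with siAARS1, for a log2 change of 0.08 (95% interval -0.09 to 0.24, adjusted p = 0.391, limma). WISP1, WISP2 and WISP3 (CCN4 to CCN6) were not among the genes listed.

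**Figure D2:**
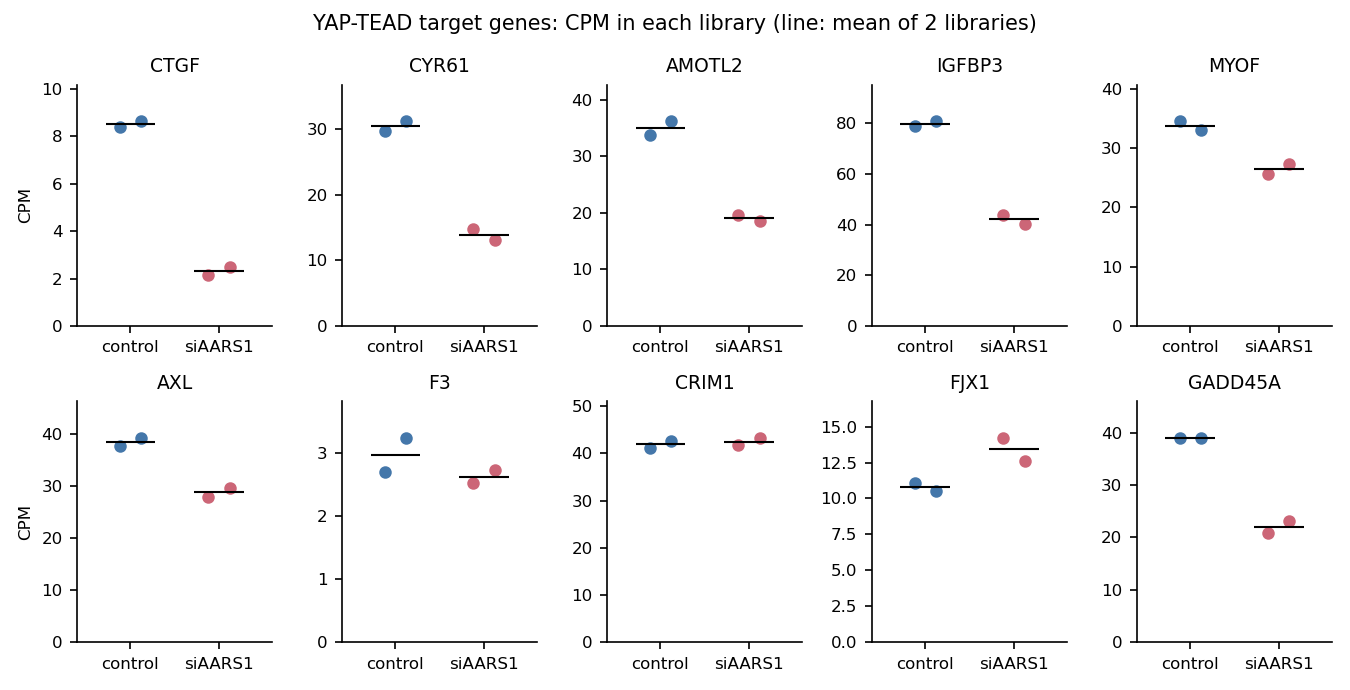
CPM of the 10 target genes in each library, one panel per gene, with a vertical axis that starts at 0. Points are the 2 control and the 2 siAARS1 libraries and lines are group means. The siAARS1 points lie below both control points in 7 panels, above in the FJX1 panel, and overlap with them for F3 and CRIM1.

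Genes whose values over the 4 libraries lay nearest to those of CTGF and CYR61, by Euclidean distance of log2(CPM + 1) among 14198 genes, were not other targets of the list. Nearest to CTGF were PHOSPHO1, a phosphatase of bone mineralization (distance 0.202), CHRD, the BMP antagonist chordin (0.239), and LRRC10B (0.274). CHRD was at 8.74 and 8.57 CPM in the controls and at 2.62 and 2.20 CPM with siAARS1. Nearest to CYR61 were EPOR, the erythropoietin receptor (distance 0.106), FBLN5, the elastic fibre protein fibulin-5 (0.158), and the readthrough transcript TMEM256-PLSCR3 (0.173). The distance uses level as well as change over only 4 libraries, and it says nothing of shared control.

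IGFBP3, a secreted carrier that binds insulin-like growth factors in the extracellular space, was the most abundant of the 10. IGFBP3 (ENSG00000146674; chr7:45912245-45921874, minus strand) was at 79.1 and 80.8 CPM in the controls and at 43.7 and 40.5 CPM with siAARS1. The groups did not overlap, and the siAARS1 mean of 42.1 ± 2.30 CPM (SD, n = 2) was 52.6% of the control mean of 80.0 ± 1.22 CPM. On the log2 scale it changed by -0.91 (SE 0.0530, adjusted p = 1.35e-12 by limma). In its family 6 of 6 listed IGF binding proteins, IGFBP3 included, were called lower, IGFBP1 not being listed, against 38.0% of all genes tested and 67.5% of genes in the highest of 5 equal groups by transcript GC content, which holds IGFBP2, IGFBP4 and IGFBP6. Of these IGFBP6 changed by -1.24, IGFBP2 by -0.65, IGFBP5 by -0.59, IGFBP7 by -0.58 and IGFBP4 by -0.57 on the log2 scale. All 6 were called lower after the GC and length correction (33.4% of all genes), between -0.88 and -0.20, with a median of -0.35 against -0.62 before it. The family's transcripts were richer in GC (median 57.3%) than those of all genes tested (49.2%).

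AMOTL2 is an angiomotin, a junction protein that binds YAP and retains it outside the nucleus. AMOTL2 (ENSG00000114019; chr3:134355874-134375479, minus strand) was at 33.8 and 36.2 CPM in the controls and at 19.7 and 18.6 CPM with siAARS1. It stood at 54.7% of control without overlap of the groups, at 19.2 ± 0.754 against 35.0 ± 1.70 CPM (SD, n = 2). The fitted log2 change was -0.84 (SE 0.0699, adjusted p = 6.65e-10 by limma). The correction for GC content and length reduced it to -0.56, still called lower. Of the other angiomotins, AMOT was at 102 and 106 CPM in the controls and at 126 and 126 CPM with siAARS1 and was called higher, for a log2 change of 0.27 (adjusted p = 7.26e-06, limma), which was no longer called after the correction (0.04) or under median scaling (0.05). AMOTL1 was at -0.08 and was not called (adjusted p = 0.127 by limma), but was called lower after the correction (-0.11) and under median scaling (-0.30). A pseudogene, RPL39P5, shares exon sequence positions with AMOTL2 on the same strand and was not listed, so reads from it would be counted with AMOTL2 or lost.

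GADD45A, a small nuclear protein induced by DNA damage and other stress that binds the clamp protein PCNA and activates MAP kinase kinase kinases, was lower too. GADD45A (ENSG00000116717; chr1:67685061-67688338, plus strand) was at 38.9 and 39.0 CPM in the controls and at 20.9 and 23.1 CPM with siAARS1. The siAARS1 mean of 21.99 ± 1.61 CPM (SD, n = 2) was 56.5% of the control mean of 39.0 ± 0.0509 CPM. It changed by a log2 value of -0.80 (SE 0.0678, adjusted p = 8.68e-10 by limma). Its relative GADD45B fell as well, from a mean of 23.4 ± 1.95 to 11.6 ± 0.361 CPM (SD, n = 2), for a log2 change of -0.95 (adjusted p = 2.10e-09, limma). GADD45G was not among the genes listed.

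The 2 membrane proteins AXL and MYOF showed smaller falls. AXL is a receptor tyrosine kinase of the TAM family, and MYOF (myoferlin) is a ferlin that takes part in membrane repair and vesicle fusion. AXL (ENSG00000167601; chr19:41219203-41261766, plus strand) was at 37.7 and 39.2 CPM in the controls and at 27.9 and 29.6 CPM with siAARS1. The groups did not overlap, and the mean was 28.8 ± 1.19 against 38.4 ± 1.10 CPM (SD, n = 2), 74.8% of control. The log2 change of the gene was -0.41 (SE 0.0629, adjusted p = 6.79e-06 by limma), and after the correction for GC content and length it was -0.16 (adjusted p = 0.0184 by limma). MYOF (ENSG00000138119; chr10:93306429-93482317, minus strand) was at 34.5 and 33.0 CPM in the controls and at 25.6 and 27.4 CPM with siAARS1. It was at 78.4% of control, with means of 26.5 ± 1.27 and 33.8 ± 1.05 CPM (SD, n = 2) and no overlap. The fit gave a log2 change of -0.34 (SE 0.0659, adjusted p = 0.000103 by limma). For MYOF the correction moved the change away from 0, to -0.51. Under median scaling AXL was at -0.63 and MYOF at -0.56. The only other ferlin listed, FER1L6, had about 1 CPM in every library and was not called (0.09, adjusted p = 0.651 by limma).

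Of the TAM receptors and their ligands, 4 of 5 were lower and 1 was higher, against 38.0% and 32.6% of all genes. TYRO3, the receptor nearest to AXL in kind, was at 93.0 and 102 CPM in the controls and at 84.4 and 80.0 CPM with siAARS1, for a log2 change of -0.24 (adjusted p = 0.00022, limma). MERTK, the receptor known for the uptake of dead cells, changed by -0.29 (adjusted p = 0.00108 by limma). The ligand GAS6, which binds all 3 receptors, fell from 53.5 and 55.3 CPM to 34.6 and 37.1 CPM, for a log2 change of -0.59 (adjusted p = 8.51e-09, limma). The ligand PROS1, protein S of the anticoagulant system, rose from 15.5 and 16.2 CPM to 22.4 and 23.4 CPM, for a log2 change of 0.51 (adjusted p = 5.93e-06, limma). After the GC and length correction neither TYRO3 (-0.00036) nor PROS1 (-0.14) was called, and GAS6 (-0.22) and MERTK (-0.26) were still lower.

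F3 encodes tissue factor, the membrane protein that starts the extrinsic coagulation cascade, and CRIM1 encodes a membrane protein that binds bone morphogenetic proteins and restrains their secretion. Neither was called. F3 (ENSG00000117525; chr1:94529225-94541800, minus strand) was at 2.70 and 3.25 CPM in the controls and at 2.53 and 2.74 CPM with siAARS1, from 92, 103, 78 and 91 reads. The groups overlapped, and its log2 fold change of -0.13 (SE 0.143, adjusted p = 0.437 by limma) had a 95% interval from -0.42 to 0.17. With so few reads that interval was wide, and median scaling gave -0.35, called lower. CRIM1 (ENSG00000150938; chr2:36355926-36551135, plus strand) was at 41.3 and 42.6 CPM in the controls and at 41.7 and 43.3 CPM with siAARS1. The groups overlapped here as well, at a log2 fold change of 0.02 (SE 0.0567, adjusted p = 0.757 by limma, 95% interval -0.10 to 0.14), from 1289 to 1440 reads in a library. That interval leaves out falls of the size of AXL and MYOF. The sign depended on the scaling, with -0.20 under median scaling and -0.13 under quantile normalization, both called lower. CRIM1 overlaps the gene FEZ2 on the other strand, without shared exons, and FEZ2 was listed at a mean of 30.6 CPM.

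Partners of these 2 genes gave mixed calls. TFPI, the inhibitor of the tissue factor pathway, was at 6.51 and 7.50 CPM in the controls and at 7.09 and 8.12 CPM with siAARS1 and was not called (0.10, adjusted p = 0.425 by limma), but was called lower after the GC and length correction (-0.93, adjusted p = 9.35e-07 by limma). TFPI2, a related protease inhibitor at 0.752 to 1.76 CPM, was called lower (-0.44, adjusted p = 0.0229 by limma). That call was lost without control replicate 1 (-0.39, adjusted p = 0.0967 by limma) or without siAARS1 replicate 2 (-0.29, adjusted p = 0.189 by limma). Of the ligands that CRIM1 binds, BMP4 fell from 32.1 and 32.3 CPM to 12.1 and 11.5 CPM, for a log2 change of -1.37 (adjusted p = 5.77e-13, limma). BMP7 changed from 77.7 and 79.6 CPM to 64.0 and 56.6 CPM, for a log2 change of -0.38 (adjusted p = 2.73e-06, limma). BMP4 was still lower after the GC and length correction (-1.12), and BMP7 was not called (-0.10).

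FJX1 was the only one of the 10 called higher. It encodes a secreted protein related to Drosophila four-jointed, a Golgi kinase that acts on the giant cadherins Fat and Dachsous upstream of Hippo signalling. FJX1 (ENSG00000179431; chr11:35618419-35620868, plus strand) was at 11.1 and 10.5 CPM in the controls and at 14.2 and 12.6 CPM with siAARS1. Both siAARS1 values were above both controls, at means of 13.4 ± 1.12 and 10.8 ± 0.374 CPM (SD, n = 2), 1.24-fold higher. The log2 change came to 0.29 (95% interval 0.09 to 0.49, SE 0.0951, adjusted p = 0.0103 by limma). The call was not firm. It was lost without control replicate 2 (0.26, adjusted p = 0.0539 by limma), without siAARS1 replicate 1 (0.21, adjusted p = 0.118 by limma), under median scaling (0.07), under quantile normalization (0.04) and in edgeR with the upper quartile (0.22), while the GC and length correction raised the value to 0.64. The cadherins of the same system changed far more, and in opposite directions. FAT4 rose from 22.6 and 24.0 CPM to 110 and 118 CPM, for a log2 change of 2.24 (adjusted p = 7.28e-19, limma). DCHS1 fell from 34.3 and 35.1 CPM to 11.3 and 10.4 CPM, for a log2 change of -1.59 (adjusted p = 5.94e-14, limma). Both calls were kept after the correction, at 1.36 for FAT4 and -1.27 for DCHS1.

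**Figure D3:**
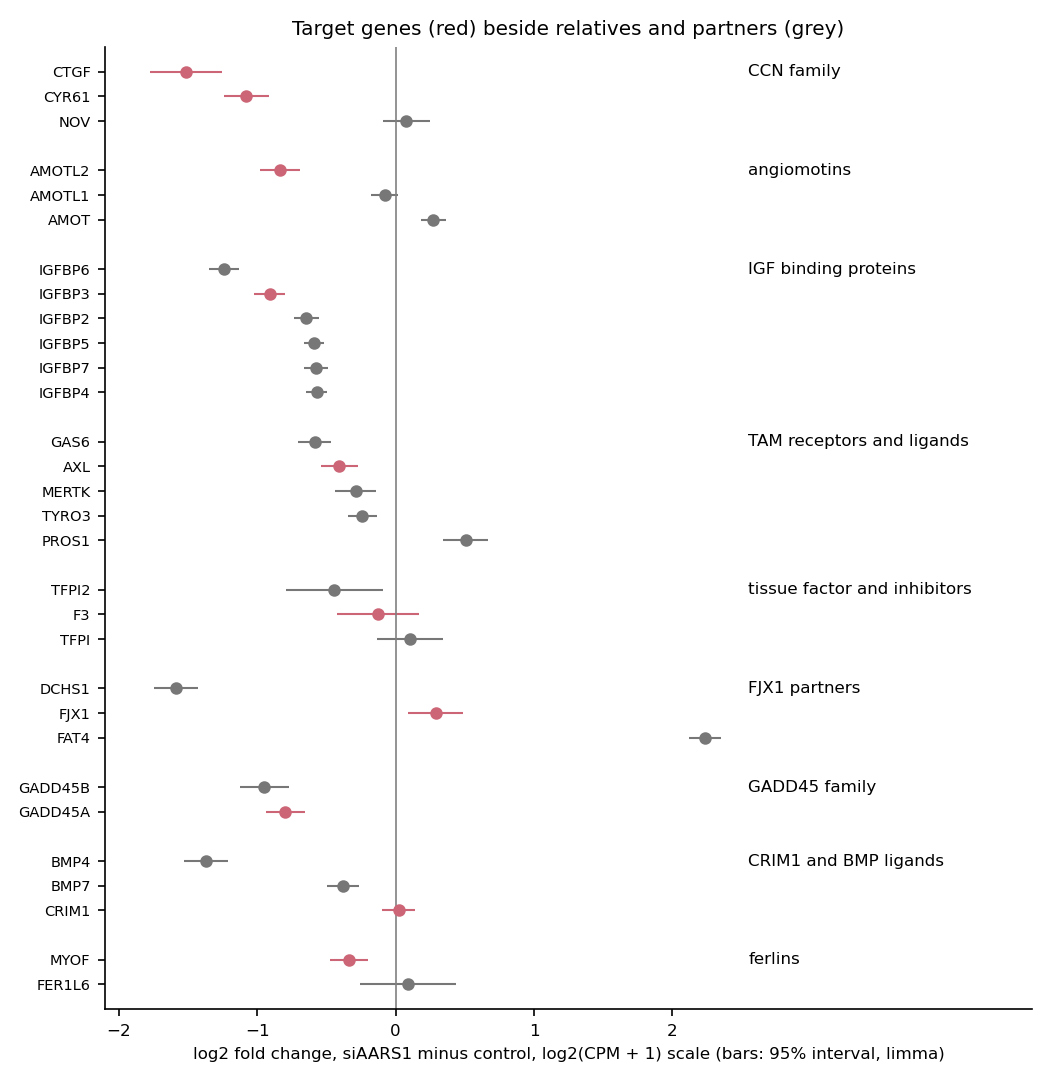
Log2 fold change of siAARS1 against control on the log2(CPM + 1) scale, with 95% limma intervals, for the target genes (red) and their listed relatives and partners (grey), by family. All 6 IGF binding proteins lie left of 0, CTGF and CYR61 lie far left of NOV, and DCHS1 at -1.59 and FAT4 at 2.24 lie on opposite sides of FJX1.

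Levels were compared between genes per kilobase of the longest coding transcript. This comparison is rough, as the transcript expressed was not determined and GC content is not corrected for. IGFBP3 was highest in control libraries at 33.2 CPM per kb. GADD45A followed at 26.0, CYR61 at 13.3, AXL at 8.11, AMOTL2 at 7.74, CRIM1 at 7.09, MYOF at 5.03, FJX1 at 4.40, CTGF at 3.64 and F3 at 1.2995 CPM per kb. The replicate ranges of AXL and AMOTL2 overlapped, and those of the other neighbours in this order did not. The usual readout CTGF was thus next to the lowest level of the 10 before knockdown. In siAARS1 libraries IGFBP3 (17.4) and GADD45A (14.7) were still the highest, CRIM1 (7.19) came next, CYR61 (6.07) overlapped with both AXL (6.07) and FJX1 (5.48), and AMOTL2 (4.24), MYOF (3.94), F3 (1.15) and CTGF (0.997 CPM per kb) followed. CTGF had moved to the lowest place. In control libraries IGFBP3 ranked at percentile 84.6 of the listed genes with an annotated length on this scale, and F3 at percentile 19.9.

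Changes across all genes followed transcript GC content in this comparison, and the target genes were therefore read against it. Over 13819 genes with an annotated transcript, the log2 fold change had a Spearman rank correlation of -0.656 with GC content, a description across genes, which are not independent replicates. In 5 equal groups of genes by GC content, the median log2 fold change went from 0.77 in the lowest (27.8% to 41.3% GC) through 0.21, -0.12 and -0.24 to -0.30 in the highest (58.9% to 75.2% GC), and the share called lower went from 3.47% to 67.5%. CTGF, CYR61, IGFBP3, GADD45A, MYOF and CRIM1 lay in the middle group, AMOTL2 and AXL in the next higher, F3 in the next lower and FJX1 in the highest. CTGF, CYR61, IGFBP3 and GADD45A thus stood 0.68 to 1.39 below the median of genes of like GC content. FJX1, the richest of the 10 in GC at 63.8%, stood 0.59 above the median of its group.

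**Figure D4:**
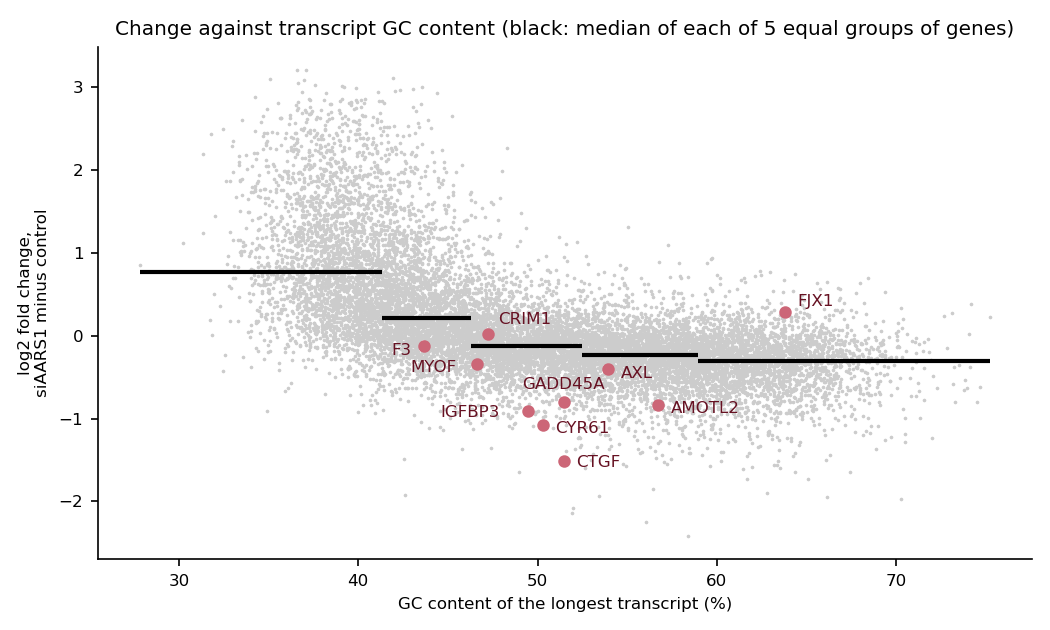
Log2 fold change of siAARS1 against control (log2(CPM + 1) scale) against the GC content of the longest transcript in percent, with all genes in grey, the target genes in red and the median of each of 5 equal groups of genes by GC content as a black line. The medians descend from 0.77 to -0.30. CTGF, CYR61, IGFBP3, GADD45A and AMOTL2 lie farthest below the line of their group. F3, MYOF and AXL lie less far below theirs, and FJX1 and, by less, CRIM1 lie above theirs.

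After the smooth trend on GC content and length was taken out of each library, CTGF was at -1.34, CYR61 at -0.90, IGFBP3 at -0.76, GADD45A at -0.58, AMOTL2 at -0.56, MYOF at -0.51, F3 at -0.26, AXL at -0.16, CRIM1 at -0.05 and FJX1 at 0.64. The same 7 genes were called lower, with 33.4% of all genes called lower and 32.7% higher in that fit. The correction also takes out any true change that follows GC content or length, and what lies behind the trend was not tested.

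**Figure D5:**
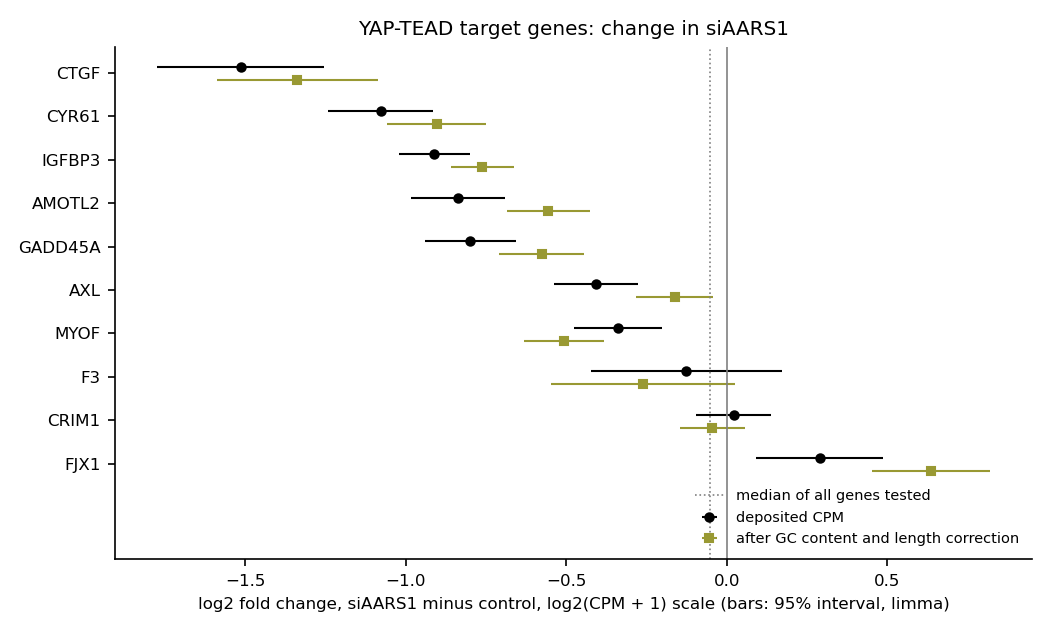
Log2 fold change of each target gene with its 95% limma interval, from the deposited CPM (black circles) and after the correction for GC content and length (olive squares), with the median of all genes tested as a dotted line at -0.05. The intervals of CTGF, CYR61, IGFBP3, AMOTL2, GADD45A, AXL and MYOF lie below 0 in both, those of F3 and CRIM1 include 0, and that of FJX1 lies above 0.

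The other genes of a 22-gene YAP and TAZ target signature, of which the 10 genes above are a part, did not move in 1 direction. Of the 12 others 10 were listed, ANKRD1 and NT5E not being among the genes listed, and 5 were called lower and 5 higher (38.0% and 32.6% of all genes), with a median of -0.05. Lower were CCDC80, a matrix protein (-0.63, adjusted p = 9.66e-12 by limma), FOXF2, a mesenchymal transcription factor (-0.61, adjusted p = 6.67e-06 by limma), and NUAK2, a kinase (-0.43, adjusted p = 0.0187 by limma), with the largest falls. NUAK2 had under 2 CPM in every library, and its call was lost in 3 of the 4 fits that left out 1 library: without control replicate 1 (-0.38), without siAARS1 replicate 1 (-0.44) and without siAARS1 replicate 2 (-0.42). After the GC and length correction it was not called (-0.25). Higher with the largest rises were RBMS3, an RNA-binding protein (0.86, adjusted p = 1.21e-05 by limma), ASAP1, an ARF GTPase-activating protein (0.69, adjusted p = 5.67e-11 by limma), and TGFB2, a TGF-β ligand (0.59, adjusted p = 3.75e-06 by limma). These 10 transcripts had a median GC content of 45.5%, against 50.9% for the genes above. After the GC and length correction 7 of them were lower and 1 was higher, ASAP1 at 0.21 (33.4% and 32.7% of all genes). Their median was then -0.28. RBMS3 (-0.37) and TGFB2 (-0.42) turned to lower calls, CCDC80 moved to -1.66 and FOXF2 to -0.25.

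Of the other genes often read as YAP targets and reported here, 3 were called lower and 1 was not called. Among all genes tested 38.0% were called lower and 32.6% higher. AREG and EDN1 were not among the genes listed. THBS1, the matricellular protein thrombospondin-1, fell from 28.5 and 32.1 CPM to 16.7 and 16.7 CPM, for a log2 change of -0.82 (adjusted p = 3.74e-09, limma). AJUBA, a LIM protein that binds LATS kinases, changed by -0.32 (adjusted p = 8.84e-05 by limma). BIRC5, the apoptosis inhibitor survivin, changed by -0.24 (adjusted p = 5.19e-05 by limma), and the cell cycle regulator CCND1 was not called (-0.08, adjusted p = 0.0695 by limma). After the GC and length correction THBS1 (-1.16) was still called lower, and AJUBA (-0.10) and BIRC5 (-0.03) were not (33.4% of all genes lower).

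Transcripts of the factors themselves did not move in 1 direction, and YAP1 and WWTR1, higher in the deposited values, turned to lower calls after the GC and length correction. Of 9 effectors and cofactors 7 were listed, of which 3 were lower, 3 higher and 1 not called (38.0% of all genes lower and 32.6% higher). YAP1 was at 130 and 135 CPM in the controls and at 148 and 158 CPM with siAARS1, for a log2 change of 0.21 (adjusted p = 0.000212, limma). WWTR1, which encodes TAZ, was at 34.9 and 37.9 CPM in the controls and at 41.3 and 43.9 CPM with siAARS1, for a log2 change of 0.22 (adjusted p = 0.00298, limma). Its call was lost without control replicate 1 (0.16, adjusted p = 0.0648 by limma) or siAARS1 replicate 2 (0.18, adjusted p = 0.0528 by limma). The corrected values were -0.31 for YAP1 and -0.60 for WWTR1, and under median scaling neither was called, at -0.01 and 0.0023. WWTR1 was not called under quantile normalization either (0.05). Among the DNA-binding partners, TEAD1 rose from 43.5 and 44.3 CPM to 121 and 122 CPM, for a log2 change of 1.45 (adjusted p = 4.80e-17, limma) that was 0.37 after the correction. TEAD3 (-0.46, adjusted p = 2.19e-06 by limma), TEAD2 (-0.25, adjusted p = 0.000209 by limma) and VGLL4, which competes with YAP for TEAD (-0.23, adjusted p = 0.000788 by limma), were lower, and none of the 3 was called after the correction.

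Upstream of YAP, 8 of 12 kinases, adaptors and inhibitors were called higher, 3 lower and 1 not called, with a median of 0.24 (32.6% of all genes higher and 38.0% lower), whereas after the GC and length correction 7 were called lower and 1 higher, with a median of -0.13 (33.4% of all genes lower and 32.7% higher). The largest rises were those of MOB1B, the LATS cofactor (1.81, adjusted p = 8.69e-14 by limma), LATS1, the kinase that phosphorylates YAP (1.35, adjusted p = 4.21e-11 by limma), and STK3, the kinase MST2 (0.89, adjusted p = 3.86e-08 by limma). LATS1 was at 10.2 and 13.2 CPM in the controls and at 29.5 and 32.7 CPM with siAARS1. Lower were AMOTL2, LATS2, itself a target of YAP (-0.42, adjusted p = 0.000165 by limma), and NF2, the upstream regulator merlin (-0.27, adjusted p = 4.80e-05 by limma). These transcripts had a median GC content of 44.6%. LATS1 (0.15), STK3 (0.16) and NF2 (0.02, adjusted p = 0.667 by limma) were not called after the correction, LATS2 was at -0.21 and MOB1B at 0.23. AMOTL2, LATS2 and PTPN14 are both targets and upstream components, and each was counted in both lists.

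Strand use in the counting was not stated, and CTGF, AXL and CRIM1 each overlap an antisense gene that shares exon positions and was not listed, so reads of the 2 strands cannot be told apart there. The calls of CTGF, CYR61, IGFBP3, AMOTL2, GADD45A, AXL and MYOF were kept when any 1 library was left out.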

How the data were processed

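RNA of 2 control and 2 siAARS1 libraries of HGC27 cells was analysed from 1 table of 14431 genes, and groups were taken from the sample titles. The authors deposited values in CPM, reads per gene scaled to the size of the library. RSEM 1.3.3 and hg38 are named in the submitters' processing notes with no role. The aligner, annotation and use of strand are not given in the sources used here. Every listed gene had over 1 CPM in at least 1 library, so genes below that level were not analysed here. CPM is not corrected for gene length or GC content. For 100% of values CPM was a whole multiple of the value of 1 read (tolerance 0.0006 CPM), which gave the reads per gene. A count of 0 reads allows up to 3 reads, 0.0880 to 0.0971 CPM, for counting error only. Replicates differed by more than sampling noise (chi-square per gene 3.63 and 3.62) and were kept as separate samples.

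The 14199 genes whose mean reached 1 CPM in either group were tested with limma 3.58.1 (eBayes with trend, two-sided, R 4.3.3) on log2(CPM + 1), with group as the only term and Benjamini-Hochberg adjustment over all genes tested (threshold 0.05). Fold changes on this scale understate those of low genes. The recovered reads were tested with edgeR 4.0.16 (quasi-likelihood) and DESeq2 1.42.0 as alternatives, and edgeR with TMM called 9806 of 14199 genes, against 10032 by limma. In the GC and length correction, the trend on GC content and length of the longest transcript was taken out with mgcv 1.9.3. Gene coordinates, GC content and lengths came from GENCODE v29 (GRCh38), matched by identifier for 97.2% of listed genes. The fit was tested on simulated data in which few genes changed and changes did not follow GC content, unlike in these libraries. The 10 genes, the gene lists and the tests were chosen with earlier results of these data known, so no test over a list is given. Named were AARS1, the 10 genes, at most 3 called genes with the largest change per list and direction, each listed relative in a family, and the 3 nearest genes to CTGF and CYR61. Current symbols are given where the table uses older ones. From the lists, 1 gene is not reported here, and CCND1 and BIRC5 were then given with the rest of that list.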

Additional observations from a re-analysis of the deposited data

How the results depend on the processing

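CTGF, CYR61, AMOTL2, IGFBP3, MYOF, AXL and GADD45A were called lower under every alternative run, and 7 to 9 of the 10 genes were lower. The number called higher was 0 in place of 1 under median scaling, quantile normalization, edgeR with the upper quartile and a threshold of 0.01. When 1 library was left out, in which case the lone sample of a group is assumed to vary like the other group, 7 to 7 genes were lower, 0 to 1 higher, 8905 to 9326 of all genes were called, and AARS1 ranged from -0.54 to -0.50. CRIM1 turned to -0.20 (median scaling), -0.13 (quantile normalization), -0.071 (edgeR with the upper quartile), -0.046 (GC and length correction), -0.0010 (without control replicate 1) and -0.0055 (without siAARS1 replicate 2), and without either of the other libraries it was at most 0.047. After the GC and length correction, with or without the replicate block, RBMS3 turned to -0.37, TGFB2 to -0.42, TEAD2 to 0.085, WWTR1 to -0.60, YAP1 to -0.31, NF2 to 0.022, PROS1 to -0.14 and TFPI to -0.93. Under median scaling YAP1 turned to -0.013, NOV to -0.14, FER1L6 to -0.13 and TFPI to -0.12. Under quantile normalization NOV turned to -0.15 and TFPI to -0.071, and with the upper quartile NOV turned to -0.0097. The cause of each was not tested. Same-numbered libraries are not stated to be pairs. Across the genes tested, the deviations of the replicate 1 libraries from their group means correlated at 0.118. With 2 libraries in a group, replicate 2 gives the same value. The replicate block left the calls of the 10 genes at 7 lower and 1 higher. Depth limits CTGF and F3 most, with 67 to 286 and 78 to 103 reads in a library.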
